A study of Rattus norvegicus with 36 samples.

Results

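The 10 genes described here, *Stard13*, *Map3k11*, *Arid3a*, *Arid3b*, *Cbfb*, *Ets1*, *Lifr*, *Smo*, *Tnfaip3* and *Vdr*, were chosen by name as reported targets of the microRNA miR-125b that are not known first for a role in apoptosis. This choice was made with earlier results of these data known, so counts set beside shares of all genes are descriptive. All 10 were found, each under 1 gene identifier, among 24275 listed genes. H9C2, a cell line of rat cardiac myoblasts, was transfected with 25 nmol/L of 1 of 6 synthetic RNAs: the mimic control (MC), a mimic of miR-125b, or a mimic of 1 of its 3′ isomiRs, with an A added (Plus A) or with the last 1, 2 or 3 bases removed (Trim A, Trim AG and Trim AGU). The cells were then kept in normoxia in fresh medium or in hypoxia in serum-free, low-glucose medium, so that oxygen and medium cannot be told apart. Each of the 12 groups had 3 libraries of poly-A RNA, and 33 libraries from 11 groups entered with their counts. Normoxia MC entered only as a group mean given by the authors. Nothing in the labels says whether the 3 libraries of a group came from separate cultures, so p-values measure the spread between these libraries, which may be technical.

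A microRNA guides an Argonaute protein to mRNAs, mostly through pairing of its seed, bases 2 to 8 from the 5′ end, with sites in the 3′ untranslated region, and the mRNA is then translated less or degraded. An isomiR is a variant of a microRNA with another end, and a 3′ isomiR keeps the seed and differs only at the far end. miR-125b is abundant in heart and muscle and is known for targets in cell survival, differentiation and inflammation. The mature rat sequence from RefSeq (rno-miR-125b-5p) lies on chromosome 11, 29732588 to 29732609, plus strand, of GRCr8, within *Mir125b2*, the 1 entry in the reference used. The paper names another rat locus of mature miR-125b, on chromosome 8. The 4 isomiR sequences follow from it by adding or removing the bases in their names. They are shown to make plain what was varied, with the seed in capitals, and all have the same seed.
miR-125b: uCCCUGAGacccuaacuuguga
Plus A: uCCCUGAGacccuaacuugugaa
Trim A: uCCCUGAGacccuaacuugug
Trim AG: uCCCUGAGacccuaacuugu
Trim AGU: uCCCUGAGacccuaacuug
The mimics are thus 22, 23, 21, 20 and 19 bases long.

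Total counts per library were 28361216 to 42672584. The Hypoxia Trim AG libraries held the most, 39940087 to 42672584, and no library of another group exceeded 34505938. The part of this depth in the Trim AG results was not tested. Of 8 myoblast markers, 5 (*Vim*, *Myod1*, *Myog*, *Tnnt2* and *Cdh15*) were above 1 CPM (the count scaled by the total count of the library) in every library, while *Myf5* did not exceed 0.0703 CPM and *Des* was 0.855 to 4.98 CPM. Of 8 markers of leukocytes, endothelium, epithelium and mature cardiomyocytes, 6 were found by symbol, and their summed level was 1.01 to 3.41 CPM. Replicate 2 of Hypoxia Trim AGU stood apart, with a mean correlation of 0.956 with its own group. In that library genes of 4000 bases or more were lower against Hypoxia MC than genes of 1000 to 2000 bases by a median of 0.94 on the log2 scale. The same difference was 0.05 to 0.42 in the Trim A and Trim AG libraries and 0.16 and 0.40 in the other 2 Trim AGU libraries, 0.15 to 0.22 under miR-125b and 0.01 to 0.11 under Plus A, long genes being lower in each. *Stard13*, *Lifr*, *Ets1*, *Arid3a*, *Vdr* and *Arid3b* are 4083 to 5621 bases long, and the other 4 genes 2445 to 3509. In normoxia, replicate 1 of miR-125b correlated more with the Plus A libraries than with its own group (0.988 against 0.986). Replicate 1 of Plus A correlated more with the miR-125b libraries than with its own group (0.988 against 0.987). Gaps this small cannot tell whether a label is wrong. The other 2 miR-125b libraries were also slightly nearer to Plus A than to their own group, while the other 2 Plus A libraries were nearest to their own group. In hypoxia, replicate 1 of Trim A also correlated more with miR-125b than with its own group (0.987 against 0.984). The same held for replicate 1 of Trim AGU with miR-125b (0.982 against 0.969) and for its replicate 3 with Trim AG (0.978 against 0.971), in a group whose replicate 2 stood apart. The calls that rest on replicate 2 of Hypoxia Trim AGU, replicate 1 of Hypoxia Trim A or replicate 1 of Normoxia miR-125b or Plus A are given with and without that library.

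In Hypoxia MC the 10 genes spanned a wide range of levels per length. As FPKM (fragments scaled by gene length and library size, mean ± SD of 3 libraries), *Cbfb* was at 60.2 ± 1.95, *Smo* at 45.0 ± 0.382, *Stard13* at 13.6 ± 0.424, *Map3k11* at 12 ± 0.279 and *Arid3a* at 5.62 ± 0.264. *Tnfaip3* (3.10 ± 0.201), *Ets1* (3.00 ± 0.307) and *Vdr* (2.69 ± 0.00451) followed, and the range of the *Ets1* libraries, 2.66 to 3.25, overlapped the ranges of both neighbours. *Lifr* was at 1.84 ± 0.237 and *Arid3b* was lowest, at 0.587 ± 0.0743. Counts of *Arid3b* were 31 to 154 in a library, so its values have a wide counting error, and the lowest count of any of the 10 genes was 14, for *Lifr* in replicate 2 of Hypoxia Trim AGU.

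Whether the mimics lowered these genes in hypoxia was asked by comparing each mimic with Hypoxia MC. *Lifr*, *Stard13*, *Cbfb* and *Arid3a* lay below MC in every library of every mimic, though only *Stard13* was called under all 5. *Smo* and *Arid3b* were called under none. *Vdr* was below MC in the libraries of the Trim isomiRs and above it in those of miR-125b and Plus A. A gene was called lower or higher at a Benjamini-Hochberg adjusted p below 0.05 by edgeR's quasi-likelihood test over all genes and a change of at least 1.5-fold. Under miR-125b, 4 of the 10 genes were called lower (*Stard13*, *Cbfb*, *Ets1* and *Lifr*) where 12.5% of the 15143 genes tested were called lower. Plus A lowered 5 (*Stard13*, *Map3k11*, *Cbfb*, *Ets1* and *Lifr*), against 14.4% of all genes. Under Trim A, 4 were called (*Stard13*, *Arid3a*, *Cbfb* and *Lifr*), against 15.7%, and under Trim AG 4 (*Stard13*, *Arid3a*, *Lifr* and *Vdr*), against 20.2%. For Trim AGU 4 were called (*Stard13*, *Arid3a*, *Tnfaip3* and *Vdr*), against 12.4%. None was called higher under any mimic by edgeR or by DESeq2, where 9.43%, 10.5%, 12.4%, 17.0% and 11.4% of all genes were, in the same order of mimics. Under miR-125b *Vdr* was the 1 gene higher by the adjusted p alone, as were 29.5% of all genes. The 5 comparisons share the MC libraries. The median log2 change of the 10 genes was -0.42 under miR-125b, -0.57 under Plus A, -0.50 under Trim A, -0.52 under Trim AG and -0.77 under Trim AGU, and the median over all genes lay between -0.0158 and 0.0033. By the adjusted p alone 6, 7, 7, 6 and 5 genes were lower, beside 30.0%, 28.6%, 26.1%, 29.6% and 14.6% of all genes. All 3 libraries of the mimic lay below all 3 of MC for 7, 7, 8, 7 and 7 of the 10 genes, beside 35.5%, 33.7%, 33.3%, 36.7% and 35.0% of all genes. The summed level of the myoblast markers moved with these comparisons, from 4823 to 4983 CPM in the MC libraries to 2970 to 3717 CPM under miR-125b, Plus A, Trim A and Trim AG and 3810 to 4932 CPM under Trim AGU, and its part in the results was not tested. *Vim*, at 2468 to 4624 CPM, carried most of that sum. Of the other markers in the list, *Myog*, *Tnnt2* and *Actc1* were much lower under every mimic, while *Des*, *Cdh15* and *Myod1* changed less. *Des* ranged from -0.13 under miR-125b to -0.78 under Trim A and *Cdh15* from 0.08 under Plus A to -0.80 under Trim AGU. The range of *Myod1* was -0.49 under Plus A to -1.53 under Trim AGU. *Myog*, a myogenic transcription factor, changed by -2.42 under miR-125b and by up to -4.90 under Trim AG, *Tnnt2*, cardiac troponin T, by -2.83 and up to -4.22 under Trim AG, and *Actc1*, cardiac actin, by -4.47 and up to -6.78 under Trim A. In bulk RNA, fewer cells with a transcript and less of it per cell cannot be told apart.

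**Figure D1:**
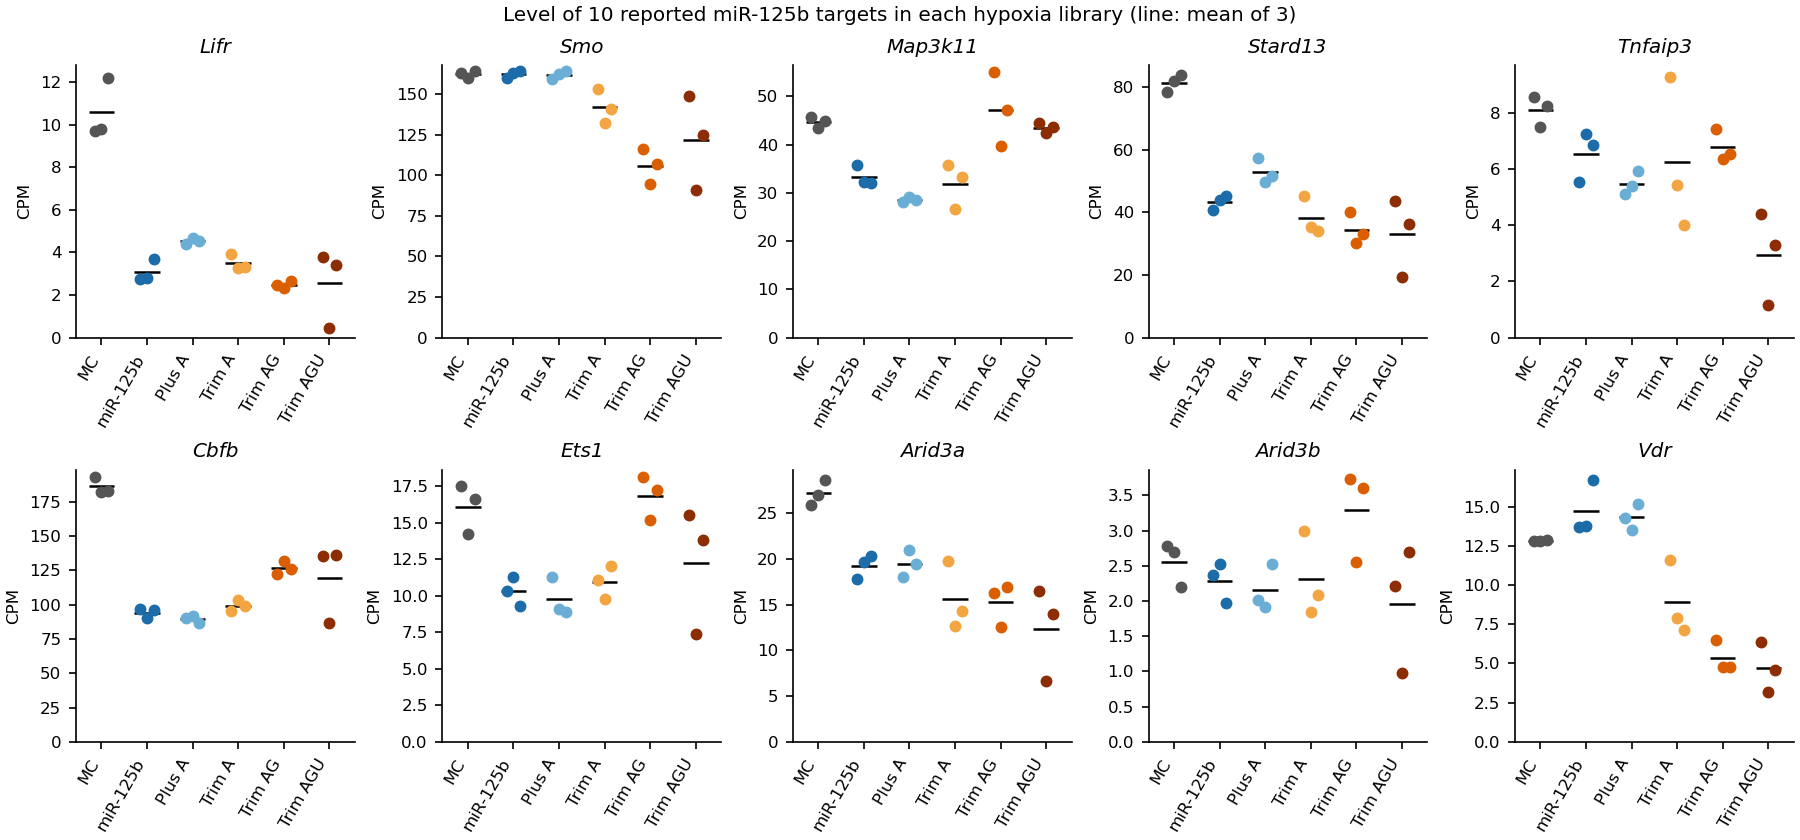
Level of each of the 10 genes in CPM (vertical axis, from 0) in the 3 libraries of each hypoxia group (horizontal axis); points are libraries and lines the means. The MC points of Lifr, Stard13, Cbfb and Arid3a lie above every mimic's points, those of Smo overlap the points of miR-125b and Plus A, and the lowest Trim AGU point is replicate 2 in each of the 10 panels.

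**Figure D2:**
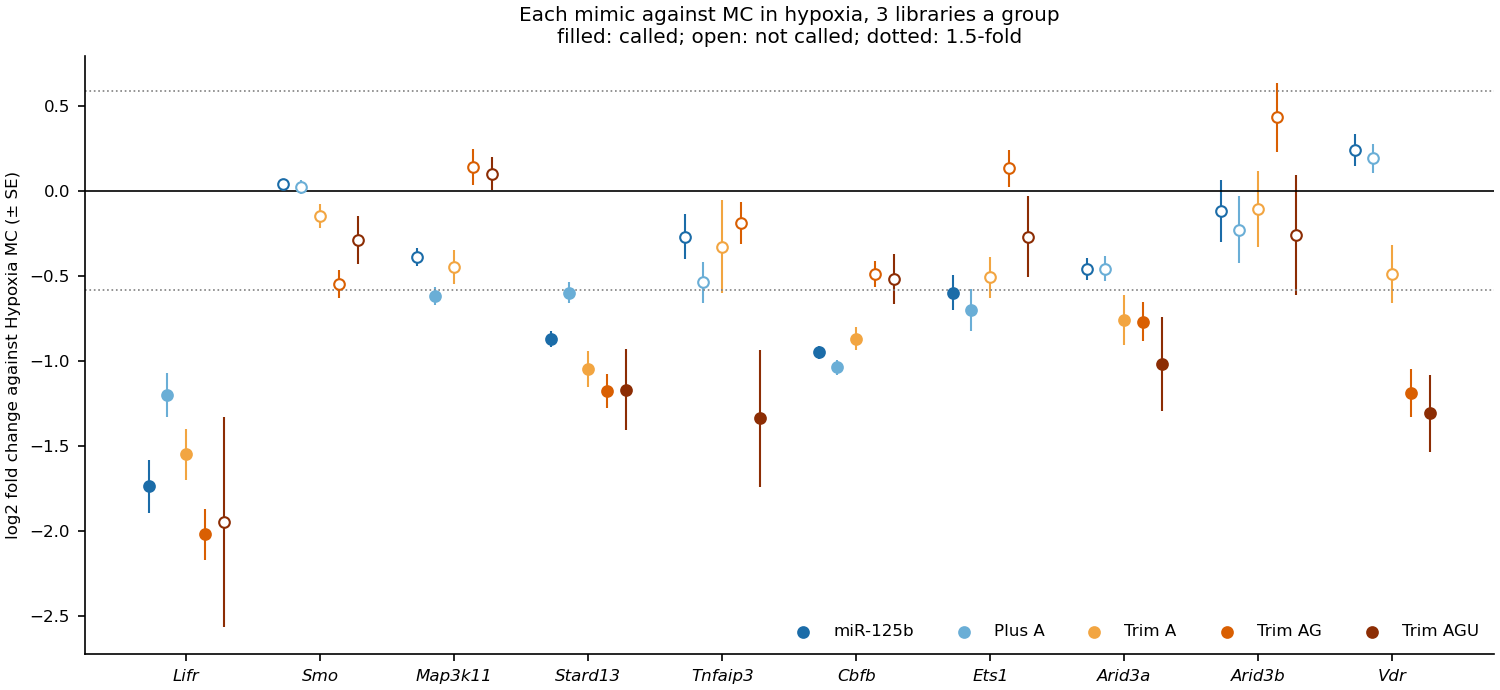
Log2 fold change of each gene (horizontal axis) under each mimic (colour) against Hypoxia MC, with standard errors from 3 libraries a group. Filled points were called; Lifr reaches -2.02 under Trim AG, Vdr is at 0.24 under miR-125b and -1.31 under Trim AGU, and the widest error bar is that of Lifr under Trim AGU.

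The cell surface receptors among the genes differed in their response. *Lifr* encodes the receptor of leukaemia inhibitory factor, which signals with gp130 through JAK and STAT3 (ENSRNOG00000011696, chromosome 2, 56426367 to 56489415, plus strand, in the tables' coordinates, whose build is not given in the sources used here). Its level was 9.72, 9.81 and 12.2 CPM in Hypoxia MC and 2.75, 2.81 and 3.71 CPM under miR-125b. No miR-125b library came near the MC range. The change was -1.74 ± 0.157 (log2, SE), or 3.33-fold lower (adjusted p = 3.2e-06), the largest of the 10 genes under this mimic. Plus A left 4.41, 4.69 and 4.53 CPM (2.29-fold lower, adjusted p = 2.8e-05). Trim A left 3.26 to 3.93 CPM (2.93-fold lower) and Trim AG 2.33 to 2.67 CPM (4.06-fold lower). In Trim AGU the libraries were at 3.78, 0.439 and 3.41 CPM, all below MC, and the change of -1.95 ± 0.616 missed the threshold (adjusted p = 0.052). Without the low replicate 2 the change for *Lifr* was -1.48 (adjusted p = 0.00025), and with the trend on gene length removed it was -1.72 (adjusted p = 0.041).

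*Smo* encodes Smoothened, the membrane protein that carries the Hedgehog signal inward (ENSRNOG00000008332, chromosome 4, 57019941 to 57042770, plus strand). It was at 163, 160 and 164 CPM under MC, 160, 163 and 164 CPM under miR-125b and 159, 162 and 164 CPM under Plus A, which overlap throughout. For miR-125b the 95% interval of the log2 change was -0.03 to 0.10 and for Plus A -0.07 to 0.11. The Trim A libraries (153, 132 and 141 CPM) lay just below MC, with a change of -0.15 ± 0.0701 (adjusted p = 0.11). Trim AG was lowest, at 116, 94.7 and 107 CPM. That change, -0.55 ± 0.0831, had an adjusted p of 0.00051 but came to 1.46-fold, short of the threshold. The Trim AGU libraries spread from 91.0 to 149 CPM.

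Among the signalling proteins, the mean level of *Map3k11* was lowest under Plus A and that of *Stard13* under the Trim isomiRs. *Map3k11* encodes the kinase MLK3, which activates the JNK pathway (ENSRNOG00000020773, chromosome 1, 221043119 to 221056417, plus strand). In Hypoxia MC it was at 45.8, 43.5 and 44.9 CPM, under miR-125b at 35.7, 32.3 and 32.0 CPM and under Plus A at 28.1, 29.1 and 28.6 CPM. Both groups lay wholly below MC, and Plus A below miR-125b as well. Only the change under Plus A, 1.54-fold (-0.62 ± 0.0521, adjusted p = 5e-06), reached the fold threshold; that under miR-125b was -0.39 ± 0.0549 (adjusted p = 0.0001) and that under Trim A -0.45 ± 0.101 (adjusted p = 0.0066). Under Trim AG (55.0, 39.6 and 47.1 CPM) and Trim AGU (44.4, 42.3 and 43.7 CPM) it overlapped MC. The 95% intervals of these 2 changes were -0.10 to 0.38 and -0.12 to 0.33.

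*Stard13* encodes a GTPase-activating protein (ENSRNOG00000001090, chromosome 12, 1023531 to 1195591, minus strand). It fell from 78.4, 81.9 and 83.8 CPM under MC to 40.8, 43.9 and 45.2 CPM under miR-125b, which is 1.83-fold (adjusted p = 6.3e-08). Plus A gave the smallest fall, to 57.4, 49.7 and 51.7 CPM (1.51-fold, adjusted p = 2.5e-05). This value sits on the fold threshold: leaving out replicate 2 or 3 of Plus A gave -0.55 or -0.58 and ended the call, as did removing the trend on gene length (-0.55). Trim A libraries were at 45.3, 35.4 and 33.9 CPM (2.07-fold lower), Trim AG libraries at 40.0, 30.2 and 33.2 CPM (2.26-fold lower) and Trim AGU libraries at 43.8, 19.5 and 36.4 CPM (2.25-fold lower). With the length trend removed these changes of *Stard13* were -0.87, -0.99 and -0.87 in place of -1.05, -1.18 and -1.17, and all 3 were still called. Compared directly with miR-125b in hypoxia, *Stard13* was at -0.18 under Trim A, -0.31 under Trim AG and -0.31 under Trim AGU. By edgeR the adjusted p was 0.35, 0.037 and 0.44, and none of these differences was called.

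*Tnfaip3* encodes A20, a ubiquitin-editing enzyme that restrains NF-kB signalling (ENSRNOG00000049517, chromosome 1, 14402913 to 14412807, minus strand). The MC libraries held 8.56, 7.49 and 8.24 CPM, those of miR-125b 5.53, 7.26 and 6.88 and those of Plus A 5.11, 5.40 and 5.95. Each of these mimic libraries was below each MC library, yet the change under miR-125b was -0.27 ± 0.132 (adjusted p = 0.10) and that under Plus A -0.54 ± 0.123 (adjusted p = 0.0038, 1.45-fold). Trim A split, with 9.30 CPM in replicate 1 against 5.45 and 4.0 in the others. Replicate 1 was also the Trim A library with the least loss of long genes, with a difference of 0.05 beside 0.42 and 0.39. *Tnfaip3* itself is 2445 bases long. The alternative fits, with the length trend removed among them, gave -0.41 to -0.30 and no call. The part of the loss of long genes in this split was not tested. Without replicate 1 *Tnfaip3* was at -0.72 (adjusted p = 0.0043), in place of -0.33 (adjusted p = 0.33). Under Trim AGU it was at 4.41, 1.16 and 3.29 CPM, a change of -1.34 ± 0.401 (adjusted p = 0.044), and without replicate 2 of -0.99 (adjusted p = 0.0024).

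The other 5 genes encode proteins that bind DNA or their partners. *Cbfb* encodes core-binding factor beta, which stabilises RUNX proteins on DNA (ENSRNOG00000014647, chromosome 19, 37127508 to 37171069, plus strand). Its 193, 182 and 183 CPM under MC stood against 96.5, 90.1 and 95.9 CPM under miR-125b, 89.9, 91.4 and 86.8 CPM under Plus A and 95.1, 103 and 99.0 CPM under Trim A. These 3 mimics brought *Cbfb* down by a similar amount, 1.93-fold, 2.05-fold and 1.82-fold, with adjusted p values of 8.3e-09, 8.6e-08 and 4e-05. Trim AG (122, 132 and 126 CPM) and Trim AGU (135, 86.8 and 136 CPM) left more. Those changes, -0.49 ± 0.0749 and -0.52 ± 0.145, passed the adjusted p (0.00054 and 0.037) but not the fold threshold, and without replicate 2 of Trim AGU the second was -0.38 (adjusted p = 0.0030).

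*Ets1* encodes a transcription factor of the ETS family (ENSRNOG00000008941, chromosome 8, 33816386 to 33879625, plus strand). From 17.5, 14.2 and 16.6 CPM under MC it went to 10.3, 11.3 and 9.30 CPM under miR-125b (1.52-fold lower, adjusted p = 0.00046) and 11.3, 9.10 and 8.86 CPM under Plus A (1.62-fold lower, adjusted p = 0.00077). The call under miR-125b was lost without replicate 1 of MC or replicate 3 of miR-125b (-0.54 each) and with the length trend removed (-0.51), each time for its size and not for its p. Trim A gave 11.1, 9.78 and 12 CPM, a change of -0.51 ± 0.120 (adjusted p = 0.0078). Trim AG, at 18.1, 15.2 and 17.2 CPM, overlapped MC, and the 95% interval of that change was -0.12 to 0.37. In Trim AGU replicates 1 and 3 (15.5 and 13.8 CPM) lay near MC and replicate 2 at 7.41 CPM.

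*Arid3a* and *Arid3b* encode paralogous factors with an AT-rich interaction domain. *Arid3a* (ENSRNOG00000026435, chromosome 7, 12574198 to 12598370, minus strand) was at 25.9, 27.0 and 28.7 CPM under MC, above every library of every mimic. It measured 17.8, 19.7 and 20.3 CPM under miR-125b and 18, 21.0 and 19.5 CPM under Plus A, and both changes were -0.46 (adjusted p = 0.00013 and 0.00048), 1.37-fold. The Trim isomiRs took it past the threshold, with 1.69-fold under Trim A (19.8, 12.7 and 14.3 CPM), 1.71-fold under Trim AG (16.3, 12.6 and 16.9 CPM) and 2.02-fold under Trim AGU (16.5, 6.68 and 14 CPM). With the length trend removed the Trim values of *Arid3a* were -0.62, -0.62 and -0.78, all still called. Compared directly with miR-125b in hypoxia, *Arid3a* was at -0.30, -0.32 and -0.57 under these isomiRs. None of these differences was called by edgeR (adjusted p = 0.27, 0.056 and 0.25). *Arid3b* (ENSRNOG00000019677, chromosome 8, 62569528 to 62616828, minus strand) was at 2.20 to 2.78 CPM under MC and 1.97 to 2.52 CPM under miR-125b. Its groups overlapped under all 5 mimics, with changes from -0.26 to 0.43 and adjusted p of 0.098 to 0.71. The 95% interval under miR-125b, -0.52 to 0.28, includes the -0.46 seen in *Arid3a*, so a change of that size is not excluded.

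*Vdr* encodes the vitamin D receptor, a nuclear receptor that pairs with RXR (ENSRNOG00000054420, chromosome 7, 139342063 to 139394166, minus strand). Its 3 MC libraries were all between 12.8 and 12.9 CPM. Under miR-125b it was at 13.7, 13.8 and 16.7 CPM and under Plus A at 14.3, 13.5 and 15.2 CPM, each library above MC. The change was 0.24 ± 0.0931 for miR-125b (adjusted p = 0.046, and 0.22 without replicate 3 of miR-125b) and 0.19 ± 0.0836 for Plus A (adjusted p = 0.080). The Trim isomiRs went the other way. Trim A libraries were at 11.6, 7.92 and 7.16 CPM (-0.49 ± 0.173, adjusted p = 0.044), Trim AG libraries at 6.51, 4.78 and 4.80 CPM (2.29-fold lower, adjusted p = 0.00013) and Trim AGU libraries at 6.38, 3.20 and 4.58 CPM (2.49-fold lower, adjusted p = 0.0077). With the length trend removed *Vdr* was at -1.05 under Trim AG and -1.07 under Trim AGU, and both were called. Under Trim A the alternative fits gave *Vdr* at -0.53 to -0.36, with adjusted p up to 0.058. Without replicate 3 of Trim A the adjusted p by edgeR was 0.13.

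The calls under Trim AGU rested on few libraries with a wide spread. Leaving out any 1 of the 3 MC libraries, or replicate 3 of Trim AGU, ended the calls of *Arid3a* (adjusted p = 0.074 to 0.11) and *Tnfaip3* (adjusted p = 0.10 to 0.13), and each of the MC libraries also that of *Stard13* (adjusted p = 0.050 to 0.057), so that 1 or 2 genes remained in place of 4. Without replicate 2 of Trim AGU, the library that stood apart, 5 genes were called lower: *Stard13* at -0.94 (adjusted p = 0.0001), *Arid3a* at -0.75 (adjusted p = 0.00054), *Lifr* at -1.48 (adjusted p = 0.00025), *Tnfaip3* at -0.99 (adjusted p = 0.0024) and *Vdr* at -1.15 (adjusted p = 0.00071). Every one of these values was smaller than with the library in. Scaling by library size without TMM shifted the median of all genes by -0.15 in this comparison and by less than 0.1 in the other 4, and no direction of a called gene changed.

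Whether an isomiR repressed these genes more or less than miR-125b was tested directly, isomiR against miR-125b in hypoxia, in 4 comparisons that share the miR-125b libraries. Trim AG had 3 calls, the most of the 4 isomiRs, while the lowest values were those of *Vdr* (-1.56) and *Tnfaip3* (-1.09) under Trim AGU and of *Vdr* under Trim AG, and the wider spread of the Trim AGU libraries limits its calls. Trim AG left *Ets1* 1.65-fold higher than miR-125b did (0.72 ± 0.107, adjusted p = 0.0012), and *Smo* 1.51-fold lower (-0.60 ± 0.0785, adjusted p = 0.00068) and *Vdr* 2.71-fold lower (-1.44 ± 0.151, adjusted p = 0.00024). These were 2 genes lower, against 11.5% of all genes, and 1 higher, against 7.85%. By the adjusted p alone, which 20.5% of all genes passed as lower and 20.9% as higher, *Map3k11* (0.52 ± 0.112, adjusted p = 0.0071) and *Cbfb* (0.45 ± 0.0725, adjusted p = 0.0019) were also higher and *Stard13* (-0.31 ± 0.102, adjusted p = 0.037) lower. The *Smo* call sits on the threshold and was lost without replicate 3 of miR-125b (-0.58) or replicate 2 of Trim AG (-0.53), without the filter on low counts (-0.58) and with the length trend removed (-0.55). Without replicate 2 of Trim AG, 3 genes were called higher in place of 1, *Ets1* with *Map3k11* (0.62) and *Arid3b* (0.69). With the length trend removed *Arid3b* was called higher too (0.61, adjusted p = 0.028), beside an adjusted p of 0.055 as fitted.

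For Trim AGU, 1 gene was called against miR-125b, *Vdr*, which was 2.96-fold lower (-1.56 ± 0.235, adjusted p = 0.020), where 1.93% of all genes were called lower and 1.83% higher. This call was lost when any miR-125b library (adjusted p = 0.10 to 0.12) or replicate 3 of Trim AGU (adjusted p = 0.10) was left out, with *Vdr* at -1.61 to -1.45 in these fits. Without replicate 2 of Trim AGU *Vdr* was at -1.40 (adjusted p = 0.0023) and *Tnfaip3* was called lower too, at -0.74 (adjusted p = 0.035). *Map3k11* was higher by 0.48 ± 0.105 (adjusted p = 0.056), and by 0.62 with the length trend removed (adjusted p = 0.037). The interval for *Lifr*, -1.72 to 1.26, was too wide to tell Trim AGU from miR-125b.

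For Plus A and Trim A none of the 10 genes was called against miR-125b in hypoxia by edgeR. Under Plus A edgeR called 0 of the 10 genes and DESeq2 0, while 3 had an unadjusted p below 0.05, and 1.32% of all genes were called lower and 0.707% higher. By the adjusted p alone, which 7.55% of all genes passed as lower and 8.36% as higher, *Stard13* was higher by 0.27 ± 0.0657 (adjusted p = 0.024) and *Map3k11* lower by -0.24 ± 0.0621 (adjusted p = 0.033). For *Lifr* the difference of 0.54 ± 0.161 had an adjusted p of 0.051, and without replicate 3 of miR-125b it was called at 0.69 (adjusted p = 0.044). Against Trim A edgeR called 0 genes, with 2 at an unadjusted p below 0.05, beside 0.417% of all genes called lower and 0.457% higher. DESeq2 called 1, *Vdr*, at -0.73 (adjusted p = 0.0041, and 0.082 by edgeR). Without replicate 1 of Trim A the *Vdr* value was -0.95 and was called (adjusted p = 0.00024), and against MC 6 genes were called lower in place of 4, with *Tnfaip3* (-0.72) and *Vdr* (-0.71) added to *Stard13* (-1.18), *Arid3a* (-0.95), *Cbfb* (-0.83) and *Lifr* (-1.63). The 95% intervals of *Cbfb*, -0.19 to 0.01 for Plus A and -0.08 to 0.23 for Trim A, exclude a 1.5-fold difference from miR-125b, while those of *Tnfaip3* and *Vdr* under Trim A, -0.73 to 0.59 and -1.15 to -0.31, do not.

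In normoxia the genes called against miR-125b again lay under Trim AG and Trim AGU, and they were higher under the isomiR. Trim AG left *Tnfaip3* at 8.24, 5.93 and 7.27 CPM where miR-125b left 3.32, 3.62 and 3.37 (2.01-fold higher, adjusted p = 0.00095). *Map3k11* was at 49.4, 49.2 and 47.8 CPM against 24.9, 31.5 and 31.5 (1.61-fold higher, adjusted p = 0.00029). *Ets1* was at 29.0, 29.9 and 29.2 CPM against 16.0, 18.1 and 16.9 (1.67-fold higher, adjusted p = 7.5e-05). In each of the 3 genes the groups were apart, and they made 3 genes called higher beside 7.58% of all genes, and 0 called lower by edgeR or DESeq2 beside 6.36%. *Smo* was lower by the adjusted p alone, at 119, 119 and 122 CPM against 134, 136 and 145 (-0.26 ± 0.0529, adjusted p = 0.0046). Under Trim AGU 2 genes were called higher, beside 6.22% of all genes, and 0 lower, beside 5.16%: *Ets1*, at 30.6, 33.8 and 25.9 CPM (1.76-fold, adjusted p = 0.0011), and *Lifr*, at 16.5, 20.3 and 20.8 CPM against 11.7, 9.71 and 11.5 (1.74-fold, adjusted p = 0.0022). Without replicate 2 of Normoxia Trim AGU, *Map3k11* (0.64) and *Tnfaip3* (0.61) joined them and *Vdr* was called lower (-0.59, adjusted p = 0.021). *Cbfb* was higher by the adjusted p alone under both isomiRs, by 0.37 ± 0.0580 and 0.47 ± 0.0698. Without replicate 1 of miR-125b every one of these called genes was still called, *Map3k11* under Trim AG at 0.59 in place of 0.69.

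Between Plus A and miR-125b in normoxia edgeR and DESeq2 called 0 of the 10 genes, 0 had an unadjusted p below 0.05, and edgeR called 0 of 14781 genes. The log2 differences were -0.16 to 0.08. In *Map3k11* replicate 1 of each group lay toward the other group. Replicate 1 of miR-125b was at 24.9 CPM beside 31.5 and 31.5, and replicate 1 of Plus A at 34.6 CPM beside 27.5 and 24.3. Without both, the difference of *Map3k11* was -0.26 (adjusted p = 0.096) in place of -0.02. In *Cbfb* each replicate 1 lay with its own group, at 101 CPM beside 103 and 97.3 under miR-125b and 94.3 CPM beside 92.9 and 95.1 under Plus A. Trim A against miR-125b gave 0 calls by edgeR and by DESeq2 among the 10 genes, with 3 at an unadjusted p below 0.05, *Ets1* being highest at 0.31 ± 0.0911 (adjusted p = 0.11). Over all genes 0.0475% were called lower and 0.367% higher.

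**Figure D3:**
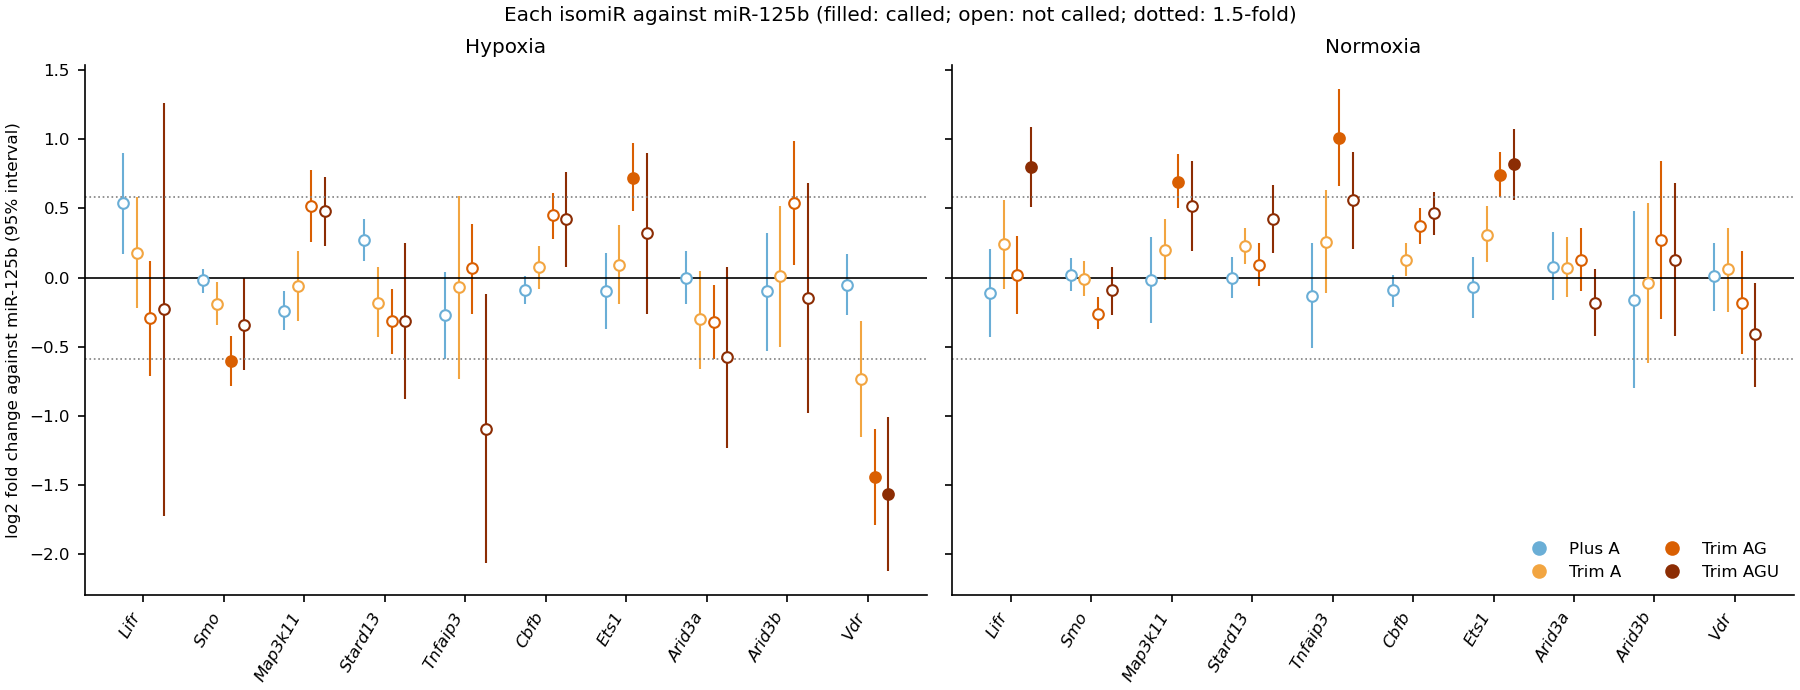
Log2 fold change of each gene (horizontal axis) under each isomiR (colour) against miR-125b with its 95% interval, in hypoxia (left) and normoxia (right); filled points were called. Vdr lies at -1.44 and -1.56 for Trim AG and Trim AGU in hypoxia, Ets1 at 0.72 to 0.82 for Trim AG in both and Trim AGU in normoxia, and the Plus A points lie between -0.27 and 0.54.

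For normoxia against MC only the authors' group means of Plus A and MC were used, with no error and no test. The mean of *Lifr* under Plus A was 302 against 732 under MC, or 41.2%, and that of *Tnfaip3* 93.0 against 225, or 41.4%. *Map3k11* stood at 56.0% of MC, *Stard13* at 58.9%, *Ets1* at 60.5% and *Cbfb* at 60.9%. These 6 of the 10 genes were thus at least 1.5-fold below MC, as were 12.6% of the 14332 genes with an MC mean above 10. *Arid3b* was at 77.8%, *Arid3a* at 85.4%, *Smo* at 109% and *Vdr* at 125%, and the median over all those genes was 99.6%. The Plus A mean includes replicate 1, the library nearer to miR-125b than to its own group, which could not be taken out of it.

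The effect of oxygen, with its change of medium, was compared under each mimic. *Lifr* and *Ets1* were lower in hypoxia under all 5, and *Tnfaip3* was higher under miR-125b and Plus A. Under miR-125b *Lifr* was at 11.7, 9.71 and 11.5 CPM in normoxia and 2.75, 2.81 and 3.71 CPM in hypoxia, 3.76-fold lower (adjusted p = 1.2e-05). Its fall was 2.41-fold under Plus A, 3.89-fold under Trim A, 4.58-fold under Trim AG and 7.54-fold under Trim AGU, where replicate 2 was lowest in hypoxia, and -2.44 in place of -2.91 on the log2 scale without that library. *Ets1* fell by 1.75-fold, 1.78-fold, 2.02-fold, 1.74-fold and 2.42-fold in the same order of mimics. Without replicate 2 of Hypoxia Trim AGU *Ets1* was at -1.06 in place of -1.28 under Trim AGU, and without replicate 1 of Normoxia miR-125b or Plus A it was at -0.84 and -0.77, all called. In both genes every hypoxia library was below every normoxia library of its mimic. The levels of *Lifr* in Hypoxia MC, 9.72 to 12.2 CPM, overlapped those of the normoxia groups of miR-125b and Plus A, while MC in normoxia was not analysed here on the same scale. By the authors' means, Normoxia Plus A was at 41.2% of Normoxia MC for *Lifr*, 60.5% for *Ets1* and 41.4% for *Tnfaip3*. The effect of oxygen under MC was not tested.

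*Tnfaip3* was at 3.32 to 3.62 CPM in normoxia and 5.53 to 7.26 CPM in hypoxia under miR-125b (1.80-fold higher, adjusted p = 0.0013) and rose from 2.75 to 3.70 CPM to 5.11 to 5.95 CPM under Plus A (1.62-fold, adjusted p = 0.0059). Without replicate 1 of Normoxia miR-125b *Tnfaip3* was at 0.83 and *Lifr* at -1.86 under miR-125b, and without replicate 1 of Normoxia Plus A they were at 0.81 and -1.14 under Plus A, all still called. *Arid3b*, at -0.41 under miR-125b (adjusted p = 0.19), was called at -0.60 without replicate 1 of Normoxia miR-125b (adjusted p = 0.050 when rounded). Under Trim AG the groups of *Tnfaip3* overlapped (-0.07 ± 0.156), and under Trim AGU each hypoxia library was lower, with a change of -0.78 ± 0.401 (adjusted p = 0.17). *Vdr* was 1.82-fold lower in hypoxia under Trim AG (adjusted p = 0.0048), from 7.82 to 12.2 CPM to 4.78 to 6.51 CPM, and higher by 0.37 ± 0.114 (adjusted p = 0.022) under miR-125b, short of the fold threshold. *Stard13* was called lower under Trim A (1.69-fold), Trim AG (1.67-fold) and Trim AGU (2.10-fold), and *Arid3a* under Trim A (1.60-fold) and Trim AG (1.67-fold). With the length trend removed *Stard13* was at -0.57 and *Arid3a* at -0.53 under Trim A, and at -0.53 and -0.58 under Trim AG, and none of these 4 was called. Under Trim AGU the *Stard13* call was lost without replicate 2 or 3 of Normoxia Trim AGU (adjusted p = 0.077 and 0.060) or replicate 3 of Hypoxia Trim AGU (adjusted p = 0.053), and held at -0.84 without its replicate 2. Without replicate 1 of Hypoxia Trim A 5 genes were called lower in place of 4, *Vdr* at -0.63 being added.

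By count, 2 genes were called lower and 1 higher in hypoxia under miR-125b, beside 11.5% and 9.34% of all genes, and 2 and 1 under Plus A, beside 12.8% and 10.0%. Under Trim A 4 were called and all were lower, beside 14.5% of all genes called lower and 26.5% called in either direction. Under Trim AG 5 were called lower, beside 17.8% and 32.8%, and under Trim AGU 3, beside 13.4% and 27.0%. No gene of the 10 was called higher under the 3 Trim isomiRs by edgeR or DESeq2. Of 9 tested genes of a list of known hypoxia-induced genes, 5 were called higher in hypoxia under Trim AG and 8 under each of the other mimics. Against MC in hypoxia 4, 5, 4, 4 and 3 of the 9 were called lower under the mimics in the order miR-125b, Plus A and the Trim isomiRs from the longest, with medians of -0.48, -0.67, -0.43, -0.50 and -0.38, beside medians of -0.42 to -0.77 for the 10 genes. The shares of all genes called lower were 12.5%, 14.4%, 15.7%, 20.2% and 12.4% in the same order.

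**Figure D4:**
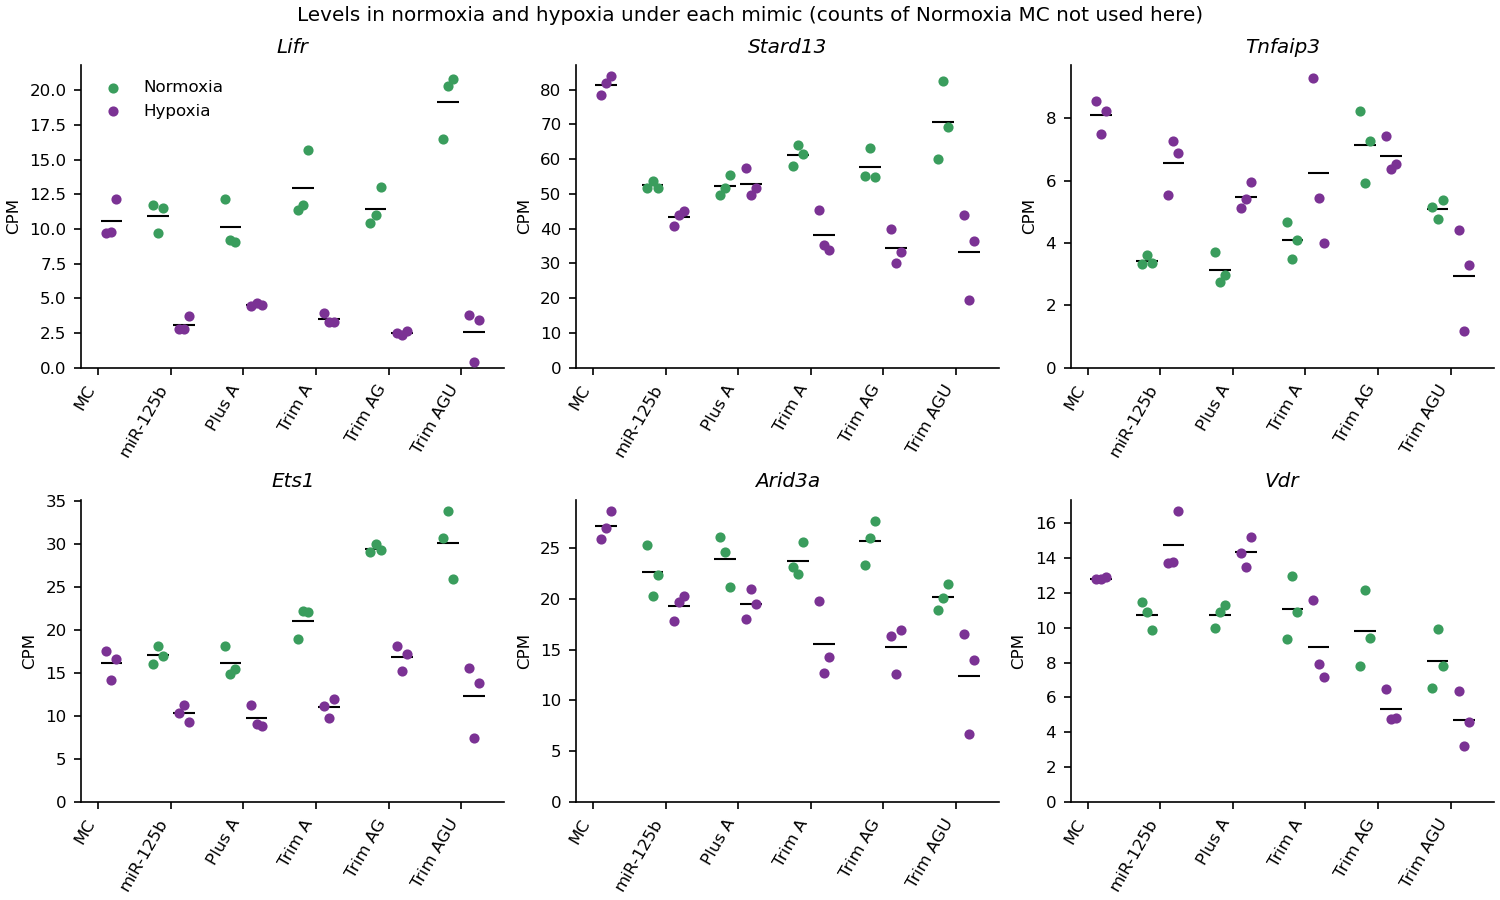
Level in CPM (vertical axis, from 0) in normoxia and hypoxia (colour) under each mimic, for the 6 genes called in at least 1 comparison of oxygen; points are libraries and lines the means of 3. Lifr under miR-125b lies at 9.71 to 11.7 CPM in normoxia and 2.75 to 3.71 CPM in hypoxia, Tnfaip3 is higher in hypoxia under miR-125b and Plus A, and Vdr under Trim AG lies at 4.78 to 6.51 CPM in hypoxia, below its normoxia libraries.

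Whether the distance between an isomiR and miR-125b differed between hypoxia and normoxia was tested as an interaction. For Trim AG 2 genes were called, both with a lower isomiR value in hypoxia, beside 6.97% of all genes, and 0 with a higher value by edgeR or DESeq2, beside 4.29%. *Vdr* under Trim AG was 2.71-fold below miR-125b in hypoxia and at -0.18 ± 0.163 in normoxia, an interaction of -1.27 ± 0.235 (adjusted p = 0.0026). *Tnfaip3* was level with miR-125b in hypoxia (0.07 ± 0.141) and 2.01-fold above it in normoxia, an interaction of -0.95 ± 0.211 (adjusted p = 0.0070). Both calls held with each of the 12 libraries left out in turn. *Ets1* was higher under Trim AG by nearly the same amount in both, and its interaction of -0.03 had a 95% interval of -0.30 to 0.24. For Plus A, Trim A and Trim AGU edgeR called 0 interactions, with 2, 2 and 3 genes at an unadjusted p below 0.05. Over all genes 0.0128% were called lower and 0.00642% higher for Plus A, 0.483% and 0.122% for Trim A and 0.354% and 0.612% for Trim AGU. DESeq2 called 0, 1 (*Vdr*, -0.78, adjusted p = 0.026) and 2 (*Tnfaip3*, -1.64, adjusted p = 0.0077, and *Vdr*, -1.13, adjusted p = 0.0078). Of the Trim AGU interactions, those of *Tnfaip3* (-1.31, adjusted p = 0.012) and *Vdr* (-0.99, adjusted p = 0.043) were called by edgeR without replicate 2 of Hypoxia Trim AGU. The Trim A interaction of *Vdr* was called without replicate 1 of Hypoxia Trim A (-1.0, adjusted p = 0.0027).

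Genes linked to the 10 were counted in the same fits. Of 36 other reported miR-125b targets, 27 were tested, and 7 were called lower and 1 higher under miR-125b against MC in hypoxia, beside 12.5% and 9.43% of all genes. The 3 lowest were *Erbb3*, a receptor of neuregulin (9.25 ± 0.609 CPM under MC, 2.01 ± 0.404 under miR-125b, log2 change -2.16), *Ccnc*, cyclin C (60.1 ± 1.62 and 26.5 ± 0.829 CPM, -1.15), and *Stat3*, the transcription factor downstream of the LIF receptor (186 ± 5.32 and 86.3 ± 0.960 CPM, -1.07). The 1 called higher was *Muc1*, a membrane mucin (0.95). Plus A lowered 11 of the 27 and raised 2, Trim A lowered 7 and raised 2, Trim AG 7 and 4 and Trim AGU 6 and 3. The shares of all genes were 14.4% and 10.5% under Plus A, 15.7% and 12.4% under Trim A, 20.2% and 17.0% under Trim AG and 12.4% and 11.4% under Trim AGU, so the counts under Trim AG were near the background. The median change of the list was -0.39 under miR-125b, -0.31 under Plus A, -0.42 under Trim A, -0.17 under Trim AG and -0.44 under Trim AGU.

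Of 61 paralogs and pathway partners of the 10 genes, 53 were tested. Under miR-125b 7 were called lower and 4 higher against MC, which is near the 12.5% and 9.43% of all genes, so these calls are no result about the partners as a group. By the adjusted p alone 30 of the 53 were lower and 11 of the 53 higher, beside 30.0% and 29.5% of all genes. By this rule a larger share of the partners than of all genes was lower, and a smaller share higher. The median change of the partners was -0.28, beside 0.0027 over all genes. The 3 lowest were *Socs3*, an inhibitor of JAK and STAT signalling (9.82 ± 1.58 CPM under MC, 4.72 ± 0.825 under miR-125b, -1.02), *Runx2*, a DNA-binding partner of CBFB (69.5 ± 3.62 and 33.6 ± 0.526 CPM, -1.01), and *Gli3*, a transcription factor of the Hedgehog pathway (19.1 ± 1.47 and 9.30 ± 1.58 CPM, -1.0). Among those called higher were *Rhob*, a small GTPase (546 ± 1.97 and 967 ± 16.1 CPM, 0.86) and *Cyp27b1*, the enzyme that activates vitamin D (0.76 ± 0.160). *Runx2* changed by -1.16 under Plus A, -1.37 under Trim A, -0.996 under Trim AG and -1.24 under Trim AGU, and *Socs3* by -1.23, -1.09, -1.22 and -1.16. The counts under the other mimics were 9 lower and 2 higher under Plus A, 14 and 3 under Trim A, 12 and 7 under Trim AG and 7 and 4 under Trim AGU, to be read against the shares of all genes given for the reported targets.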

How the data were processed

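The authors deposited a table for each of 12 pairs of groups, 11 of which hold a raw count and an FPKM value per gene and library; the aligner HISAT2 and the assembler StringTie are named in the submitters' processing notes, and the genome build is not given in the sources used here. Libraries were poly-A and non-stranded, so reads of overlapping genes cannot be told apart. The log2 fold change and p-value columns of the tables are the authors' own DESeq2 comparisons and were not used. Normoxia MC appears in 1 table, beside Normoxia Plus A, where the authors gave an expression signal as the mean of each group.

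Tables were joined on the gene identifier, a gene missing from a table counting as 0 (at most 1 count was seen elsewhere), and 0 counts conflicted. Of the 24275 listed features 1439 carry no Ensembl identifier, and they were kept. CPM is per total count of the library, without TMM. Each pair of groups was fitted on its own 6 libraries with edgeR 4.0.16 in R 4.3.3 (TMM, filterByExpr, quasi-likelihood test), and interactions on 12. A gene was called at an adjusted p-value below 0.05 over all genes and at least 1.5-fold. SE and intervals come from the F statistic. Replicate numbers were checked for pairing and pair no libraries (0 of 18 comparisons with every pair's correlation above 0.1).

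Alternatives were DESeq2 1.42.0, no filter, library size without TMM, 1 fit of all libraries, the replicate block, no fold threshold and each library left out. A fit in which a lowess curve of span 0.3 on gene length was subtracted (not run for interactions) and the fit without both replicates 1 of Normoxia miR-125b and Plus A were chosen after seeing the data. The 10 genes and the lists of linked genes were chosen with earlier results of these data known. All 10 genes are named, and from each list of linked genes the 3 lowest and 3 highest called under miR-125b in hypoxia with a mean of at least 1 CPM, of which 1 gene is not reported here. Before use, the edgeR script was tested on simulated data. Joins ran in Python 3.11.15 (pandas 2.3.3, numpy 2.4.6) and plots in matplotlib 3.10.9. Seed sites in the transcripts were not analysed here.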

Additional observations from a re-analysis of the deposited data

Results flagged for a closer look

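The difference between Trim AG and miR-125b was not the same in hypoxia and normoxia for 4 of the 10 genes, by edgeR's test of the interaction over all genes. The interaction was -1.27 for *Vdr* and -0.95 for *Tnfaip3*, past the adjusted p and the fold threshold. It was -0.42 for *Stard13* (adjusted p = 0.030) and -0.35 for *Smo* (adjusted p = 0.017), past the adjusted p alone. By the adjusted p alone 11.3% of all genes had a lower and 11.4% a higher interaction. With each of the 12 libraries left out in turn, the interaction of *Vdr* ranged from -1.42 to -1.08 and that of *Tnfaip3* from -1.07 to -0.84, with adjusted p up to 0.0099 and 0.024. *Stard13* ranged from -0.52 to -0.34 with adjusted p up to 0.084, reached without replicate 2 of Normoxia Trim AG, and *Smo* from -0.41 to -0.29 with adjusted p up to 0.048.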

How the results depend on the processing

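Of 3040 recomputed values of the 10 genes, 0 called values changed direction, 36 lost and 79 gained a call, 13 uncalled values moved by more than their error, and 107 changed sign, all uncalled in both fits. Of 608 recomputed counts of called genes, 46 moved by over 1.5 times, and the cause was not tested. Without the fold threshold, 1 gene in place of 0 was higher under miR-125b and 7 in place of 4 lower under Trim A against MC. Against miR-125b in hypoxia it gave 1 lower and 1 higher in place of 0 for Plus A and 3 higher in place of 1 for Trim AG, and in normoxia 1 lower in place of 0 for Trim AG and 6 higher in place of 2 for Trim AGU. In hypoxia against normoxia it gave 5 lower and 3 higher in place of 2 and 1 under miR-125b and 4 and 2 in place of 2 and 1 under Plus A, and 4 in place of 2 interactions of Trim AG. DESeq2 gave 1 lower in place of 0 for Trim A against miR-125b in hypoxia, and 1 and 2 interactions in place of 0 for Trim A and Trim AGU. All libraries in 1 fit gave 1 lower in place of 0 for Trim A and 2 in place of 1 for Trim AGU against miR-125b in hypoxia, and 7 in place of 3 lower in hypoxia under Trim AGU. Without the filter on low counts, Trim AG against miR-125b in hypoxia had 1 lower in place of 2. With the trend on gene length removed, genes lower than under miR-125b in hypoxia were 1 in place of 0 for Trim A and 1 in place of 2 for Trim AG, and genes higher 2 in place of 1 for Trim AG and 1 in place of 0 for Trim AGU; genes lower in hypoxia than in normoxia were 2 in place of 4 under Trim A and 3 in place of 5 under Trim AG.

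With the replicate number as a block, Trim AGU against miR-125b in hypoxia had 0 genes lower in place of 1 (*Vdr*, -1.60, adjusted p = 0.075), and no other count of called genes moved by over 1.5 times. The numbers pair no libraries. With 1 library left out, the genes called lower under Trim AGU against MC numbered 1 to 5. Against miR-125b in hypoxia, Plus A had 0 to 1 higher, Trim A 0 to 1 lower, Trim AG 1 to 2 lower and 1 to 3 higher, and Trim AGU 0 to 2 lower. In normoxia, Trim AGU had 0 to 1 lower and 2 to 4 higher. Hypoxia against normoxia had 0 to 1 higher under Trim A. Of interactions, Trim A had 0 to 1 and Trim AGU 0 to 3. Library size without TMM shifted the median of all genes by more than 0.1 in the comparisons of Hypoxia Trim AGU with MC, of Hypoxia Trim AGU with miR-125b, in the interaction of Trim AGU and in hypoxia against normoxia under Plus A. Depth limits *Arid3b*, with 31 to 154 counts in a library.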
